A study of Mus musculus with 8 samples.

Results

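The 10 gene families described here are the 4 Hox clusters (Hoxa, Hoxb, Hoxc and Hoxd) and the Pax, Lhx, Nkx, Dlx, Gata and Tbx genes, taken as every peak whose assigned gene in the deposited count table has a symbol that begins with one of these names and a digit. They took in 122 of the 67822 listed accessible regions and 57 of the 16095 genes that a region was assigned to. Of the 57 genes, 51 are the factor genes themselves and 6 are antisense or opposite-strand transcripts named after them, such as Dlx1as and Hoxb5os. The regions fell on Dlx (15 regions, 6 genes), Gata (17 and 5), Hoxa (5 and 4), Hoxb (6 and 6), Hoxc (6 and 4), Hoxd (2 and 2), Lhx (22 and 9), Nkx (15 and 7), Pax (9 and 5) and Tbx (25 and 9). The rule reads a region's assigned symbol and none of its values, although a region is listed only where it was called in one or both genotypes' peak lists.

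These families encode transcription factors that set position and cell identity in the embryo. Hox genes stand in clusters and are switched on along the body axis in the order of their place on the chromosome. Dlx, Lhx, Nkx and Pax factors carry homeodomains, paired domains or both and act in forebrain neurons, eye, motor neurons, pancreas or kidney. Gata factors bind GATA motifs in blood, heart and endoderm, and T-box (Tbx) factors act in heart, limb, pituitary and T helper cells. In cells that do not use such a gene, its CpG-rich promoter is a classical target of the Polycomb complexes, which modify histones and keep the gene silent. Microglia descend from yolk sac progenitors and are defined by other factors, among them PU.1 and Sall1.

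ATAC-seq, an assay whose transposase cuts and tags open DNA, was run on CD11b+ cells isolated on magnetic columns from dissociated forebrain after removal of myelin. There were 4 libraries of knockout mice, named Nlrp3-/- in the labels and carrying the Cias1 deletion of the inflammasome sensor gene Nlrp3, and 4 of wild-type mice on the C57BL/6N background. No group received a treatment, and the sources used here give no age, no sex and no strain for the knockout. Nothing in the labels ties a library to a separate animal, so p-values measure the spread between these libraries, which may be technical in part.

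Libraries held 11325865 to 15521580 tags, of which 4.96% to 26.2% fell in listed regions. The share was lowest in knockout replicates 1 and 2 (6.68% and 4.96%) and highest in knockout replicates 3 and 4 (20.9% and 26.2%), and wild-type libraries lay between 9.79% and 17.5%. At the Nlrp3 promoter region chr11:59541383-59541657 (mm10), knockout libraries held 0, 0, 0 and 1 tags and wild-type libraries 75, 58, 58 and 80, which separates the labelled genotypes. Over the 8 regions assigned to Nlrp3 together, the log2 fold change of knockout over wild type was -1.15 (SE 0.10). Microglial identity was visible in all 12 microglial marker genes having a region, and in a region at the promoter of 7 of the 7 with a RefSeq promoter entry. No region lay at the promoter window of 8 of 8 lymphocyte, 8 of 8 granulocyte and monocyte and 5 of 5 oligodendrocyte-lineage markers with such an entry, while 1 of 9 neuronal, 2 of 6 astrocyte, 1 of 4 endothelial and mural and 2 of 9 erythroid, megakaryocyte and mast cell windows held a region. By the authors' own, wider promoter annotation, 3 of the 9 oligodendrocyte-lineage markers had a promoter region, and 0 lymphocyte and 0 granulocyte and monocyte markers did.

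Most promoters of these developmental genes held no listed region in the forebrain CD11b+ cells. RefSeq promoter windows of 300 bp, from 250 bases before to 50 after a transcription start, existed for 62 coding genes of the families, 75 windows in all. A region overlapped 5 of the 75 windows (6.67%, exact binomial 95% interval 2.20% to 14.9%), against 47.9% of the 21188 windows of other coding genes. The 5 windows belonged to Gata2 (both of its starts), the blood stem cell and mast cell factor, Tbx20, a heart factor, Lhx6, a factor of cortical interneurons, and Hoxc4. The Gata2 regions were on both genotypes' peak lists, those of Tbx20 and Lhx6 on the wild-type list alone and that of Hoxc4 on the knockout list alone. Intervals here cover counting error alone, and neighbouring genes of a cluster are not independent.

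These windows were not poor in CpG. The windows of the families held a median of 17 CG dinucleotides, against 13 in other coding genes, and 44.0% of them held 20 or more, against 35.9%. A GC box, searched as GGGCGG on both strands, was present in 57.3% of the families' windows and 46.2% of the others. A TATA box, searched as TATAAA on both strands, was present in 10.7% and 12.6%. Such matches describe letters and not occupied sites.

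Among windows with 20 or more CG, a region overlapped 3 of the 33 in the families (9.09%, interval 1.92% to 24.3%) and 79.9% of the 7608 others. With 15 to 19 CG it was 1 of 12 against 73.3%, and with 10 to 14 CG 0 of 10 (interval up to 30.8%) against 56.1%. With 5 to 9 CG it was 1 of 11 (interval 0.23% to 41.3%) against 24.4%, so the interval covers the value of the other genes. In the poorest class, with 0 to 4 CG, it was 0 of 9 (interval up to 33.6%) against 7.02%, so that here too the interval covers the value of the other genes. In the 3 richest classes the families' interval lay wholly below the other genes' share. Widening the search to 1 kb around the window raised the count to 21 of 75 (28.0%, interval 18.2% to 39.6%), against 54.1% of the others.

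**Figure D1:**
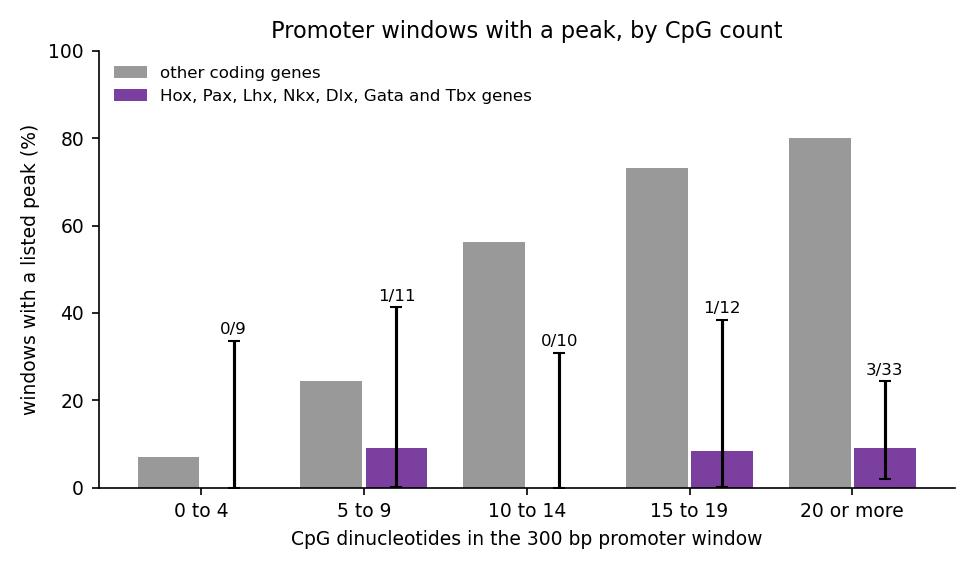
Share of 300 bp RefSeq promoter windows that hold a listed region (percent, vertical axis), by the number of CpG dinucleotides in the window (horizontal axis), for the developmental families (purple, with exact binomial 95% intervals and counts) and all other coding genes (grey). The grey bars climb from 7.02% to 79.9% with CpG content while the purple bars stay at or below 9.09%.

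To show what these windows look like, the 250 bases before the start are given for the 4 genes with an overlapping region, for Gata2 at the first of its starts, and for 3 CpG-rich genes without one. They are printed 5′ to 3′ on the gene's strand, from RefSeq on GRCm38.p6 (mm10), with each CG dinucleotide in capitals. Gata2 (chr6:88193641-88193890, plus strand), Tbx20 (chr9:24774304-24774553, minus strand), Lhx6 (chr2:36105409-36105658, minus strand) and Hoxc4 (chr15:103034145-103034394, plus strand) held 22, 22, 14 and 8 CG in the printed bases.
Gata2: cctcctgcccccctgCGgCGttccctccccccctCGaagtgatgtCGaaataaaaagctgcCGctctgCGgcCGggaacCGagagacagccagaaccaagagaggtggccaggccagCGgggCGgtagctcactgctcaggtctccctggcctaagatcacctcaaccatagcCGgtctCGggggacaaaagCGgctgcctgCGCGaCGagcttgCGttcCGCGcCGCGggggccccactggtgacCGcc
Tbx20: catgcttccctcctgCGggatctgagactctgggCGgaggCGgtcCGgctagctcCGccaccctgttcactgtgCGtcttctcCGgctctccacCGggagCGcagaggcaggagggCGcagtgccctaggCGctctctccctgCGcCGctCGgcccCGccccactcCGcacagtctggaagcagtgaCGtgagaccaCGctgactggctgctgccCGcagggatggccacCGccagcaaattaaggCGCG
Lhx6: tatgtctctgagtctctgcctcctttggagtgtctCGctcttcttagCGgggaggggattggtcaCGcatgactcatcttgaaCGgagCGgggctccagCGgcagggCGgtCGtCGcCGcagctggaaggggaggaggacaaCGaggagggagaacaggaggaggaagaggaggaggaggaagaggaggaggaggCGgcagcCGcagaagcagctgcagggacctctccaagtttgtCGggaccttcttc
Hoxc4: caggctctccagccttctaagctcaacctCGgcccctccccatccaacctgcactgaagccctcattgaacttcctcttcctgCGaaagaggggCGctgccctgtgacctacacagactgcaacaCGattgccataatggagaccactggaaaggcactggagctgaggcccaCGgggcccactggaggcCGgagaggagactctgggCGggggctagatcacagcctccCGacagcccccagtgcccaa
The neural genes Lhx2 (chr2:38339031-38339280, plus strand), Nkx6-2 (chr7:139582798-139583047, minus strand) and Dlx2 (chr2:71546755-71547004, minus strand) had no overlapping region with 25, 26 and 24 CG.
Lhx2: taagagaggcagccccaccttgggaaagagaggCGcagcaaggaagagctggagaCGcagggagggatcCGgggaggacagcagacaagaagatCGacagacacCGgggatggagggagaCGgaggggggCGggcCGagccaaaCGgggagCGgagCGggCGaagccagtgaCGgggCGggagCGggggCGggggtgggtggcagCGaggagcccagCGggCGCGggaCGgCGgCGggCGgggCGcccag
Nkx6-2: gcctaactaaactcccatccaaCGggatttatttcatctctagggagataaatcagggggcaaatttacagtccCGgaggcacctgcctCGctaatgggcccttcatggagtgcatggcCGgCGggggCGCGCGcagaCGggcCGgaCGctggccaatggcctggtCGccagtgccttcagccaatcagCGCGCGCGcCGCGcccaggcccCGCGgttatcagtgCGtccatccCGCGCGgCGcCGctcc
Dlx2: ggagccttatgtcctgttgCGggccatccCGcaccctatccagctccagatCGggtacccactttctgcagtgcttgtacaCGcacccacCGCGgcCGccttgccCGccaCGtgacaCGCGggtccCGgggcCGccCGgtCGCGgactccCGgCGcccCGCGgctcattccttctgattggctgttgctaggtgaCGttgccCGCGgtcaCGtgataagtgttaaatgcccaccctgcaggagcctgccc
These last 3 had the most CG in the window among the 16 lineage regulators named here that lacked a region.

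The regions at those 4 promoters were low. The Gata2 region chr6:88193420-88193683 had 6.96 ± 2.3 CPM in knockout and 6.62 ± 2.2 CPM in wild type (SD, n = 4 each), where CPM is tags per 1000000 tags in tested regions after TMM scaling. Over all 8 libraries this was 2.57 CPM per 100 bp of region, the length-corrected level used below to compare genes. CPM summed for a gene is scaled in the same way to the tags of tested genes, so it differs slightly from region CPM. Hoxb5os, with 1 region, had a knockout mean of 9.86 CPM as a sum and 10.2 as a region. The Tbx20 region chr9:24774264-24774662 stood at 2.03 CPM per 100 bp, the Hoxc4 region chr15:103034041-103034291 at 1.47 and the Lhx6 region chr2:36105501-36105771 at 1.34. The Lhx6 region held 2.41, 2.95, 2.20 and 2.26 CPM in the 4 knockout libraries and 2.49, 7.73, 6.26 and 2.79 in the 4 wild-type libraries, so the genotypes overlapped and wild-type replicates 2 and 3 stood apart from the other 6 libraries.

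The authors' own annotation, which counts a wider stretch around a start as promoter-TSS, gave the same low levels. It placed 13 of the 122 regions at promoters (10.7%, interval 5.80% to 17.5%), against 19.5% of the other 67700 regions. Their median level was 2.03 CPM per 100 bp, against 5.51 for the promoter regions of other genes, and 1 of the 13 lay above that median. That one was Tbx19, a pituitary factor for the corticotroph lineage, at 8.38 CPM per 100 bp (chr1:165161093-165161357, 452 bases upstream of the start). Tbx19 held 20.5, 16.2, 27.7 and 24.6 CPM in knockout libraries and 30.3, 19.7, 20.5 and 18.2 in wild-type libraries, and the genotypes overlapped over nearly their whole range. The other promoter regions belonged to Hoxa11 (3.47), Tbx21 (2.67), Gata2 (2.57 and 1.90), Tbx3 (2.50), Tbx6 (2.11), Tbx20 (2.03), Dlx4 (2.00), Nkx6-1 (1.63), Hoxb3 (1.56), Hoxc4 (1.47) and Lhx6 (1.34), all values in CPM per 100 bp.

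Promoter levels in these families moved across libraries with the share of tags in regions. The median of the 13 promoter regions was 2.42, 2.96, 1.68 and 1.42 CPM per 100 bp in knockout replicates 1 to 4, whose share of tags in regions was 6.68%, 4.96%, 20.9% and 26.2%. In wild-type replicates 1 to 4 it was 1.74, 2.19, 2.31 and 1.86 CPM per 100 bp, at 17.5%, 9.79%, 12.8% and 14.4%. The 2 libraries with the smallest share of tags in regions thus held the 2 highest promoter medians, and the 2 with the largest share the 2 lowest. Between genotypes the median was 2.12 ± 0.70 in knockout and 2.03 ± 0.27 in wild type (SD, n = 4), a difference below the spread. The part of the share of tags in regions in this order was not tested. Over all listed promoter regions the median was 5.29, 5.09, 5.23 and 5.87 CPM per 100 bp in knockout replicates 1 to 4. In wild-type replicates 1 to 4 it was 5.02, 5.57, 6.28 and 5.90, and these medians did not follow that order. All listed promoter regions stood at a higher median level than the families' 13, and promoter regions of like level were not compared.

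Away from promoters the families looked more like the rest of the list. Regions 1 to 20 kb from a start had a median of 2.78 CPM per 100 bp against 3.27 for other genes, and regions beyond 20 kb 3.09 against 3.22. Within 1 kb the medians were 2.07 and 4.64. Of the 122 regions, 48.4% were annotated as intergenic (other genes, 30.3%), 30.3% as intronic (42.9%), 16.4% lay within 1 kb of a start (25.8%), and 6.56% were on an annotated CpG island away from promoters (3.11%). The intronic calls include 10 Dlx1as and Dlx2 regions, of which 7 lie in no gene of the RefSeq table and 3 in Gm36857. Promoter and CpG island regions together made up 17.2% of the families' regions and 22.6% of the others.

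When all listed regions were divided by level into 3 classes of equal size, 22 of the 122 fell in the highest class, 40 in the middle and 60 in the lowest. Of those 22, 18 lay more than 5 kb from the start of the assigned gene and 2 within 1 kb. The highest was assigned to Lhx1os, the transcript opposite the kidney and motor neuron gene Lhx1, at 16.4 CPM per 100 bp (chr11:84597628-84597869, 72.1 kb from the start). It held 39.8, 35.4, 45.2 and 35.9 CPM in knockout libraries and 48.2, 33.0, 39.8 and 40.5 in wild-type libraries, with no separation of the genotypes. A region assigned to Lhx8 (chr3:154177767-154178001) reached 13.2 CPM per 100 bp but lies 153 kb from that start, in the body of Slc44a5, a choline transporter-like gene.

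Assignment by the nearest start therefore ties several of these regions to genes they do not lie in. Of the 122 regions, 41 overlapped the RefSeq body of their own gene, 11 overlapped another coding gene and 55 overlapped no gene of the RefSeq table. The Tbx6 region at 8.68 CPM per 100 bp (chr7:126779951-126780231) lies in Ypel3, and the Pax6 region 34.4 kb from its start (chr2:105716766-105717059) in Elp4, a neighbour known to carry Pax6 enhancers. The authors' annotation names a transcript, NR_039557, for 8 of the regions, and the RefSeq table gives that transcript as Mir5098 on chromosome 5, whereas the regions are on chromosome 2. Levels and folds below are those of the assigned regions, whatever gene they act on.

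**Figure D2:**
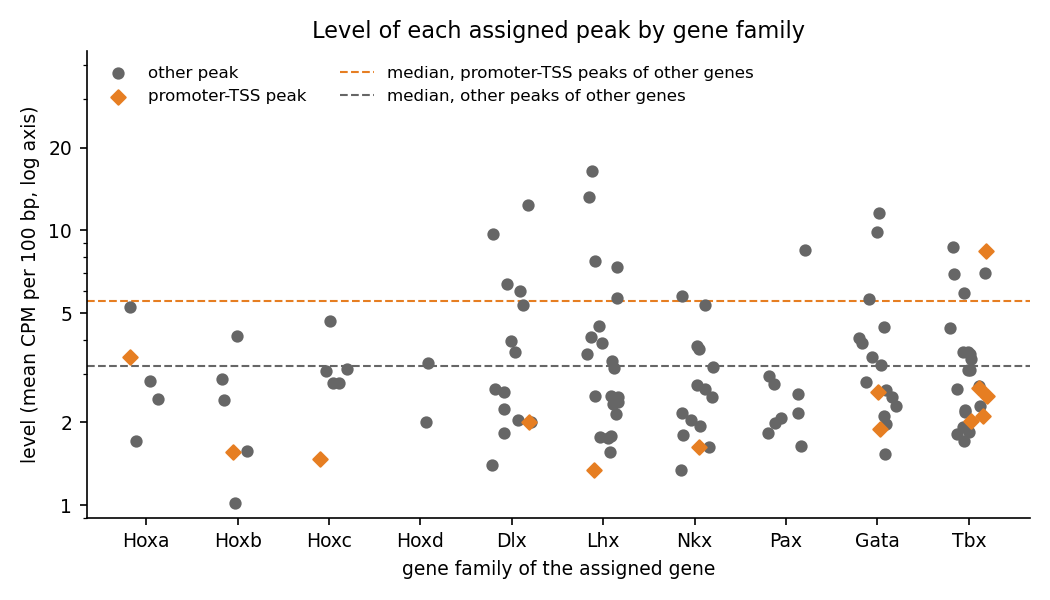
Level of each of the 122 regions (mean CPM per 100 bp over 8 libraries, log axis) by family, with promoter-TSS regions as orange diamonds and the others as grey circles. Dashed lines mark the medians of other genes, 5.51 for promoter-TSS regions and 3.22 for the rest, and Tbx19 is the single diamond above the orange line.

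Among the forebrain and neural genes, Dlx2, a factor of GABAergic interneurons, had 9 regions, the most of any Dlx gene, and 126 ± 8.5 CPM summed in knockout against 134 ± 6.2 in wild type. Its level lay in a distal group 34.1 to 80.8 kb upstream, led by chr2:71580702-71580935 at 12.4 CPM per 100 bp, with 24.1, 31.0, 30.7 and 30.1 CPM in knockout and 26.8, 25.3, 35.3 and 28.9 CPM in wild-type libraries. Dlx1, its partner, had 1 region at 2.24 CPM per 100 bp. Lhx2, needed for the cortex and hippocampus, had 5 regions, with 33.3 ± 8.9 CPM summed in knockout and 31.9 ± 1.9 in wild type, and none at its promoter windows. Nkx6-1, a motor neuron and beta cell factor, had 4, with 19.7 ± 5.4 and 21.1 ± 3.0 CPM. Nkx2-1 and Nkx2-2, which pattern the ventral forebrain and neural tube, had no assigned region, but chr2:147178179-147178426, assigned to Nkx2-2os, lies in the RefSeq body of Nkx2-2 and held 8.26 ± 2.6 CPM in knockout and 10.1 ± 1.9 in wild type. Nkx6-2, an oligodendrocyte and motor neuron factor, had 1 region, inside Inpp5a.

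Blood and immune regulators varied widely. Gata2 had 8 regions and 83.0 ± 8.7 CPM in knockout against 79.5 ± 4.2 in wild type, most of it in a group upstream of the gene, with the highest at chr6:88184780-88185024 (9.83 CPM per 100 bp, 8.99 kb upstream). Gata3, a T cell and trophoblast factor, had 2, and chr2:9879568-9879839 reached 11.6 CPM per 100 bp, 1.10 kb upstream of the assigned start but overlapping the RefSeq body of Gata3. This Gata3 region held 25.3, 20.7, 33.4 and 35.9 CPM in knockout and 30.3, 38.7, 33.0 and 34.9 in wild-type libraries, with the 2 lowest values in knockout replicates 1 and 2, the libraries with the smallest share of tags in regions. Tbx21, the T-bet factor of T helper and natural killer cells, had 6 regions whose sum ran from 44.8 to 61.4 CPM in knockout and from 48.0 to 54.4 in wild-type libraries. Gata1, the erythroid factor, Pax5, the B cell factor, and Hoxa9, a haematopoietic progenitor factor, had no assigned region.

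Of 95 coding genes of the families in the RefSeq table, 51 had at least 1 assigned region (53.7%) and 44 had none, against 62.4% with one among other coding genes. The share was 8 of 8 for Lhx, 5 of 6 for Dlx and for Gata, 8 of 13 for Tbx, 5 of 9 for Pax and 6 of 14 for Nkx. It was lowest in the Hox clusters, with 14 of 39 genes, and within them in Hoxd, with 1 of 9. Highest summed accessibility in the remaining families belonged to Tbx19 (52.3 ± 8.8 CPM in knockout, 55.4 ± 7.9 in wild type), Nkx3-2, a skeletal and gut factor (28.6 ± 2.4 and 28.1 ± 5.7), and Pax8, a thyroid and kidney factor (24.2 ± 1.9 and 23.8 ± 6.9).

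The other heart, limb and endoderm genes had few and mostly low regions. Gata4, a heart factor, had 2 regions, at 2.64 and 4.05 CPM per 100 bp. Both lie upstream of the assigned start but overlap the RefSeq body of Gata4. Gata6, its relative, had 1 in the opposite-strand transcript at 4.47. Tbx2, Tbx3 and Tbx4, which act in limb, heart and lung, had 4, 1 and 3 regions between 1.93 and 4.42 CPM per 100 bp, with 32.6 ± 2.8, 12.5 ± 3.1 and 27.1 ± 8.1 CPM summed in knockout and 36.3 ± 3.6, 12.2 ± 3.8 and 24.8 ± 4.6 in wild type. Tbx1, a pharyngeal factor, had 1 at 1.81. The Tbx3 promoter region chr5:119670524-119671036 was 513 bp wide and held 12.9 ± 3.1 CPM in knockout and 12.8 ± 4.2 in wild type.

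All 4 Hox clusters held listed regions, whose median level lay below that of regions outside the 10 families in HoxA, HoxB and HoxC and above it in HoxD. HoxA (chr6:52155367-52260880, mm10, 11 coding genes) held 7 regions, HoxB (chr11:96194316-96368254, 10 genes) 6, HoxC (chr15:102921131-103036856, 9 genes) 4 and HoxD (chr2:74668225-74765142, 9 genes) 4. That is 6.63, 3.45, 3.46 and 4.13 regions per 100 kb, against 2.49 over the span of all chromosomes up to their last region. Their median levels were 2.80, 2.00, 2.78 and 3.88 CPM per 100 bp, against 3.50 for all regions outside the 10 families. Of these 21 regions, 17 were assigned to a symbol of the Hox families and 4 to Hotairm1, Gm15050, Mir10b and LOC102634401.

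Hoxa10, a factor of posterior limb, uterus and blood progenitors, carried the highest region assigned to a Hox gene, 5.24 CPM per 100 bp in its 5′ UTR (chr6:52240447-52240680). It held 10.9, 2.95, 13.6 and 12.3 CPM in knockout and 11.4, 13.4, 15.9 and 17.7 in wild-type libraries, where knockout replicate 2 alone lay far below the rest. Hoxa7 had 2 regions and 12.5 ± 1.9 against 11.9 ± 1.9 CPM. Hoxb4, a stem cell self-renewal factor, was lowest of the 122 with 1.02 CPM per 100 bp and with 4.83, 0, 8.34 and 5.18 CPM in knockout and 7.46, 2.81, 3.98 and 2.33 in wild-type libraries. The non-coding Hoxb5os (9.86 ± 5.1 and 9.52 ± 0.56 CPM), Hoxd3os1 (9.19 ± 3.7 and 8.56 ± 1.7) and the coding Hoxc4 (21.5 ± 8.8 and 22.1 ± 3.4) had the highest sums among the Hoxb, Hoxd and Hoxc genes. Of the 3 Hoxc4 regions, 1 lies inside the HoxC span given above, and at 3.69 CPM it was the lowest of the 4 regions there. Along HoxC the regions of Hoxc9, Hoxc8 and Hoxc6, thoracic-level genes, stood at 3.13, 2.77 and 2.78 CPM per 100 bp, with 11.0 against 8.14, 9.20 against 7.60 and 7.18 against 6.38 CPM in knockout against wild type. Their SDs among knockout libraries exceeded each of these differences. The highest region in any cluster, 7.63 CPM per 100 bp in HoxD, was assigned to the microRNA gene Mir10b.

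**Figure D3:**
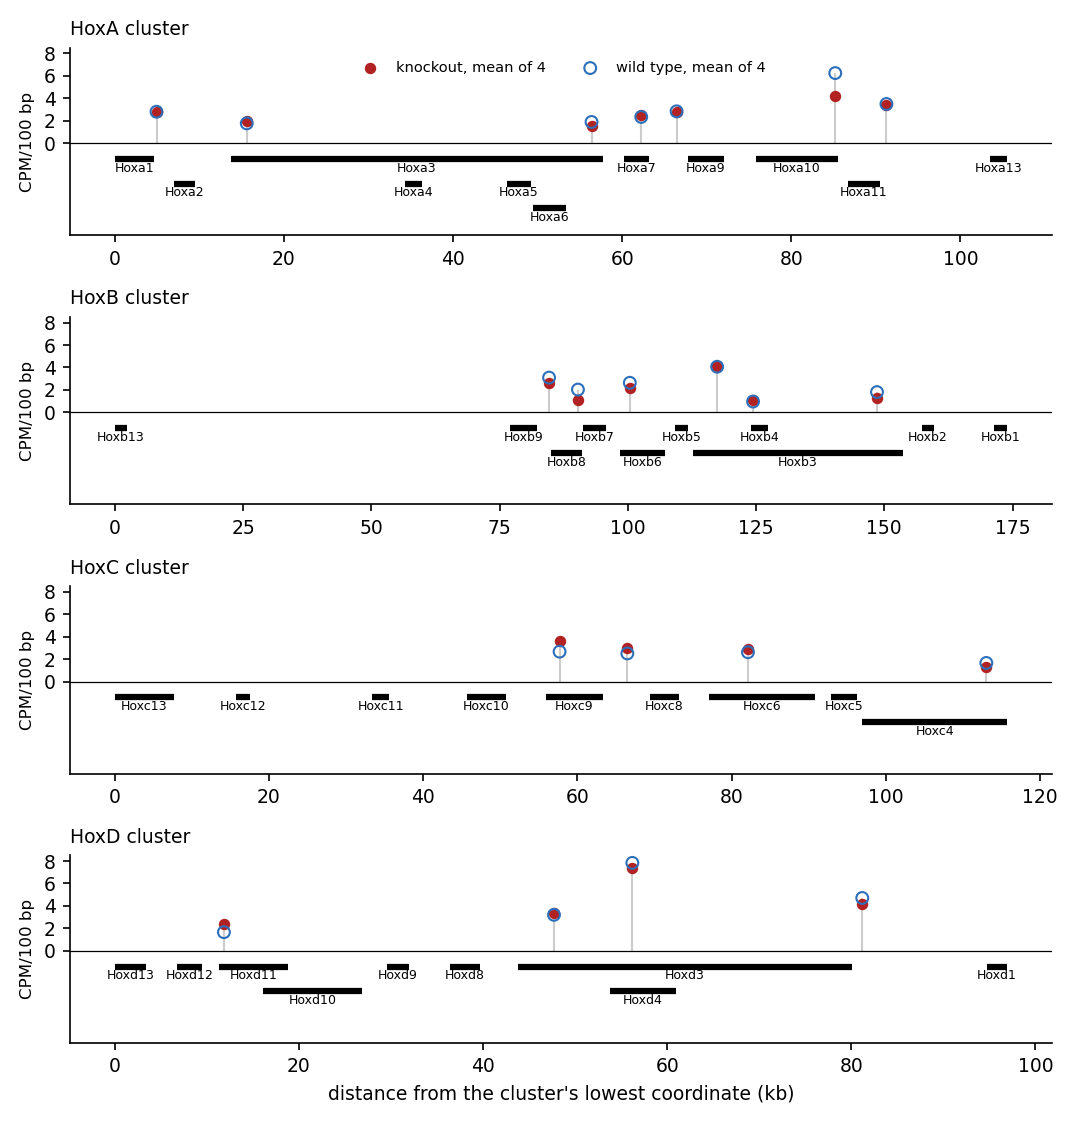
Regions in the 4 Hox clusters, by distance from the lowest coordinate of the cluster (kb, horizontal axis), with the mean level in knockout (red) and wild type (open blue) in CPM per 100 bp and RefSeq gene bodies as black bars. Both genotypes sit close together at most regions, and 17 of the 21 regions are Hox-assigned.

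No region of the families passed the test for a difference between genotypes. With edgeR's quasi-likelihood test and Benjamini-Hochberg adjustment over all 58135 tested regions, 0 of the 88 tested regions of the families passed an adjusted p of 0.05, at a background of 0.17% called over all regions, and the lowest adjusted p was 0.853. At an unadjusted p under 0.05 there were 7 of 88 (4 higher and 3 lower in knockout), at a background of 4.83%. The genotypes did not overlap in 4 of 88, at a background of 3.17%. DESeq2 also called 0 of 88, with 1 at an unadjusted p under 0.05. The median log2 fold change of knockout over wild type was 0.008, against 0.004 over all tested regions, and the 88 values ran from -0.81 to 0.94.

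Summed per gene, 0 of 46 tested genes passed, at a background of 0.213% called, and the lowest adjusted p was 0.357. An unadjusted p under 0.05 was reached by 3 of 46 (2 higher and 1 lower), at a background of 5.96%, and the genotypes did not overlap in 2 of 46, at a background of 3.46%. DESeq2 called 0 of 46, with 2 at an unadjusted p under 0.05. The median log2 fold change was 0.002, the same as over all tested genes, with 23 genes above 0 and 23 below. Each of these counts is small enough that 1 or 2 members move its share.

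How tightly the test bounds a change depends on depth. A tested region of the families held a median of 7 to 25 tags per library, and the median SE of its log2 fold change was 0.30 (all tested regions, 0.27). The 95% interval of the fold change stayed within 2-fold in either direction for 65 of 88 regions (73.9%, against 79.8% over all) and 41 of 46 genes (89.1%, against 93.6%). No tested region or gene of the families reached 2-fold, at a background of 0.729% of all tested regions and 0.375% of all tested genes, shares at which 88 regions or 46 genes would hold fewer than 1. For the other 23 regions the interval reached past 2-fold in at least 1 direction, so a 2-fold change could be missed at this depth.

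The filter on low counts left out 34 of the 122 regions and 11 of the 57 genes. Of these 34 regions, 25 came from the authors' wild-type peak list alone, 7 from the knockout list alone and 2 from both. Over all 122, 37 were on the wild-type list alone (30.3%, against 16.3% of other regions), 10 on the knockout list alone (8.20%, against 8.18%) and 75 on both. Low regions were mostly on 1 list: in the lowest level class, 40.3% of all listed regions were on the wild-type list alone. Of the families' 60 regions in that class, 33 were, a larger share than over all listed regions. A region listed for 1 genotype was chosen on the same tags, so its direction is not a separate measurement. The genotypes did not overlap in 5 of the 34 untested regions, at a background of 5.04% over all untested regions, and each of the 5 was on 1 genotype's list alone. The one assigned to Hoxb7 held 3.62, 2.95, 2.63 and 2.91 CPM in knockout and 5.47, 4.92, 6.26 and 5.12 in wild-type libraries, and it was on the wild-type list alone. Others on that list alone were regions of Pax7, a muscle progenitor factor (2.25 against 6.60 CPM in knockout against wild type), Dlx5, a bone and interneuron factor (3.20 against 5.54), and Nkx6-1 (3.12 against 6.67). The remaining one, assigned to Gata5, was on the knockout list alone (4.26 against 2.52).

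**Figure D4:**
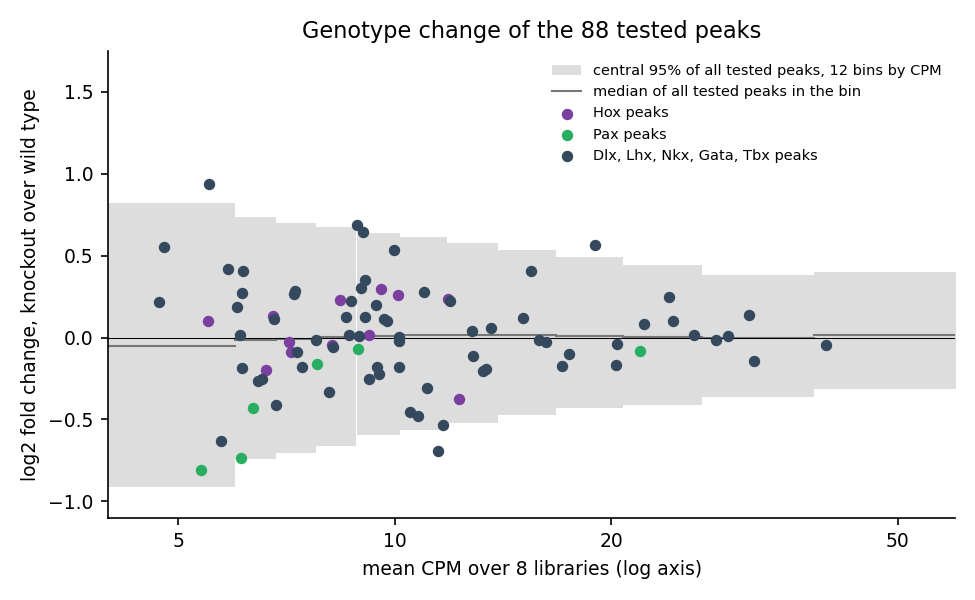
Log2 fold change of knockout over wild type (vertical axis) against mean CPM (log axis) for the 88 tested regions, over the central 95% of all tested regions in 12 bins of CPM (grey). The points run from -0.81 to 0.94, and the 6 Pax regions (green) lie between -0.81 and -0.07, the 3 lowest of them on the wild-type list alone.

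Among genes, Lhx3, a pituitary and motor neuron factor, had the smallest p. Its 2 regions summed to 36.6, 36.2, 35.1 and 25.03 CPM in knockout and 22.9, 17.6, 21.8 and 19.9 in wild-type libraries. The genotypes did not overlap, and knockout replicate 4 lay closest to the wild-type range. The log2 fold change was 0.62 (SE 0.18, 95% interval 0.25 to 0.99) with an adjusted p of 0.357 in edgeR's test. Both regions lie 17.8 and 18.9 kb from the Lhx3 start, in no RefSeq gene: chr2:26188591-26188926 had 22.9 ± 3.7 against 15.1 ± 1.5 CPM (log2 0.56, adjusted p = 0.853 in edgeR's test) and chr2:26187568-26187816 11.4 ± 3.6 against 6.35 ± 1.3 (log2 0.69).

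Gata5, a heart and endoderm factor, was next, with 4 distal regions that summed to 37.8, 27.5, 35.5 and 23.5 CPM in knockout and 19.5, 25.7, 18.6 and 18.6 in wild-type libraries. Knockout replicate 4 lay below wild-type replicate 2, so the genotypes overlapped, and 2 of the 4 regions were on the knockout list alone. The log2 fold change was 0.58 (SE 0.19, adjusted p = 0.554 in edgeR's test). The Tbx21 promoter region chr11:97115894-97116100 had the largest fold of any tested region of the families, log2 0.94 (SE 0.39, adjusted p = 0.943 in edgeR's test), at 9.65, 2.95, 7.46 and 8.09 CPM in knockout and 2.98, 5.62, 5.12 and 2.33 in wild-type libraries. It was on the knockout list alone, the genotype in which it is high. The low value of knockout replicate 2 fell within the wild-type range. Lhx9 (log2 0.26; 0.17 without knockout replicate 1 and 0.39 without knockout replicate 4), Dlx3 (0.29) and Lhx8 (0.16) completed the 5 genes with the smallest p above 0. Without knockout replicate 3, Dlx3 stood at 0.13 and Lhx8 at 0.07.

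Among Pax genes, the 6 tested regions had log2 fold changes from -0.81 to -0.07, and the lowest adjusted p among them was 1.00. The 3 lowest, both Pax6 regions (-0.81 and -0.43) and the Pax4 region (-0.73), were on the wild-type list alone, and thus were listed through the genotype in which they are high. The 3 Pax regions on both lists ran from -0.16 to -0.07. With scaling to all tags, 3 of the 6 were below 0, and with no filter on low counts 7 of 9. Pax6, the eye and cortical progenitor factor, summed to 11.8, 11.6, 7.62 and 7.11 CPM in knockout and 15.1, 14.2, 12.8 and 10.2 in wild-type libraries, with an overlap at knockout replicates 1 and 2 and wild-type replicate 4. Its log2 fold change was -0.60 (SE 0.27, adjusted p = 0.797 in edgeR's test). Pax4, a pancreatic islet factor, had 1 region, and its gene sum was 4.75 ± 1.3 against 7.02 ± 1.6 CPM (log2 -0.73, adjusted p = 0.831 in edgeR's gene test). Pax2, of kidney and midbrain, had the highest Pax region at 8.49 CPM per 100 bp and 21.2 ± 3.0 against 22.6 ± 2.5 CPM. In the gene test Pax8 was at log2 0.07.

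Lhx1 (log2 -0.39, adjusted p = 0.893), Gata6 (-0.47) and Nkx2-3 (-0.32), of kidney, endoderm and spleen, followed among genes below 0, and Gata6 stood at -0.25 without wild-type replicate 1. In Lhx1 the 4 knockout libraries lay between 11.0 and 12.1 CPM and the wild-type libraries between 12.8 and 18.5, without overlap. This sum includes chr11:84523895-84524148 (3.10 against 5.81 CPM in knockout against wild type), on the wild-type list alone, the genotype in which it is high. The Lhx1 region on both lists had log2 -0.18, and the genotypes overlapped there. Nkx2-3 likewise had a region on the wild-type list alone (log2 -0.63), and its region on both lists had log2 -0.19. Of single regions, Dlx2 at chr2:71581001-71581318, next to the high region above, had 7.24, 10.3, 7.03 and 10.4 CPM in knockout and 8.45, 14.1, 14.8 and 19.6 in wild-type libraries (adjusted p = 0.942 in edgeR's test, log2 -0.69, SE 0.28). Its neighbour differed by log2 0.01, and another Dlx2 region, chr2:71627400-71627642, by 0.41. The Tbx2 region chr11:85849189-85849452 had 9.65, 8.86, 9.66 and 9.70 CPM in knockout and 17.4, 13.4, 13.1 and 11.6 in wild-type libraries (log2 -0.53), again without overlap.

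**Figure D5:**
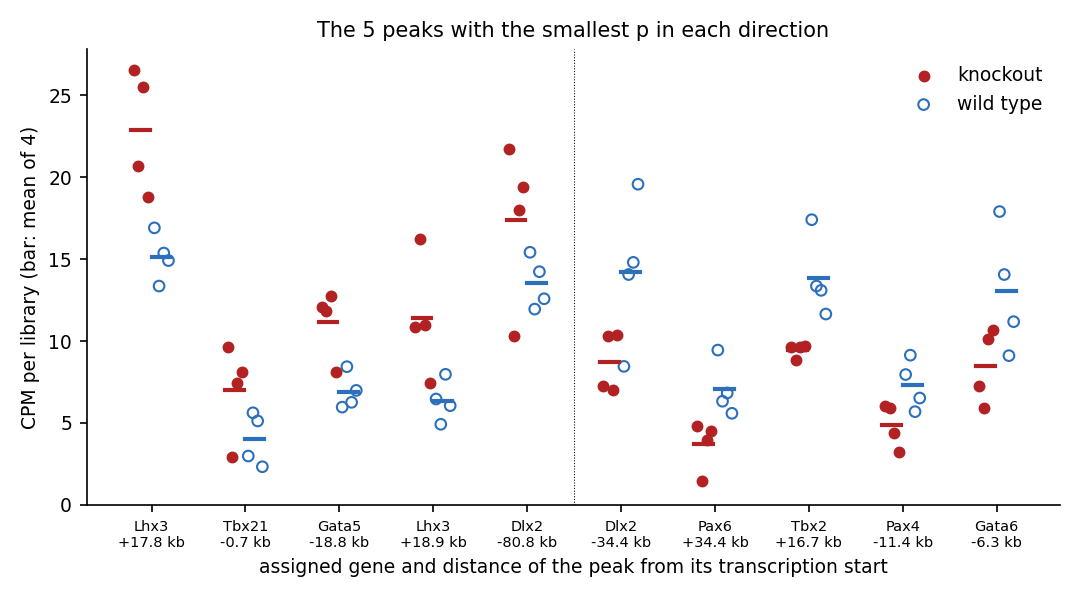
CPM in each library at the 5 regions with the smallest p in each direction (knockout red, wild type open blue, bars the mean of 4), with the distance from the start of the assigned gene. The genotypes do not overlap at the Lhx3 region 17.8 kb away, the Pax6 region and the Tbx2 region, and none of the 10 passed the adjusted threshold.

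As a sum, the portion of accessible tags in the 122 regions differed between genotypes by less than the spread between libraries. They held 0.112%, 0.107%, 0.120% and 0.108% of tags in regions in knockout replicates 1 to 4 and 0.118%, 0.116%, 0.113% and 0.111% in wild-type replicates 1 to 4. The means were 0.112% ± 0.0058 and 0.115% ± 0.0030 (SD, n = 4), and the ranges overlapped.

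Genes of the Polycomb complexes, Hox activators and demethylases, and Hox cofactors mostly had accessible promoters. Of coding genes outside the 10 families, 50.4% had a region at a RefSeq promoter window. Among their windows with 20 or more CG, 79.9% held a region. Of 32 Polycomb genes, which encode the writers, readers and partners of the repressive marks, 30 had a region, and 20 of 26 with a RefSeq entry had one at a promoter window. Of these 30, 0 passed edgeR's test or DESeq2 (1 higher at an unadjusted p under 0.05 in each). In edgeR's test over all tested genes, 0.213% passed and 5.96% had an unadjusted p under 0.05. The smallest p of the Polycomb genes belonged to Rybp, a subunit of the ubiquitin-ligase complex. It had 498 ± 23 CPM in knockout and 434 ± 51 in wild type (log2 0.19, SE 0.08, adjusted p = 0.748 in edgeR's test). Of 15 activators and demethylases, which oppose Polycomb at Hox genes, 15 had a region and 10 of 11 a promoter region, and 0 of the 14 tested passed by either tool (1 higher and 1 lower at an unadjusted p under 0.05 in edgeR's test, 0 and 1 in DESeq2). Here Kmt2b, a histone methyltransferase, had the smallest p, with 25.1 ± 7.3 against 36.8 ± 6.7 CPM (log2 -0.45, adjusted p = 0.715). Of 9 cofactors that bind DNA with Hox proteins (Meis, Pbx and Pknox), 8 had a region, 4 of 5 a promoter region, and 0 of 8 passed by either tool, or at an unadjusted p under 0.05, with Pbx4 the smallest p (log2 0.18, adjusted p = 0.920).

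The median log2 fold changes of the 3 lists were -0.04, 0.02 and 0.06, against 0.002 over all tested genes. Markers of other cells also had listed regions, mostly away from promoters. Regions were assigned to 7 of 8 astrocyte markers, whose sum ran from 405 to 549 CPM in knockout and from 346 to 443 in wild-type libraries. For 6 of 9 oligodendrocyte-lineage markers it ran from 436 to 515 and from 410 to 458, and for 6 of 10 neuronal markers from 90.9 to 126 and from 93.7 to 106. For 5 of 8 endothelial and mural markers it ran from 396 to 467 and from 392 to 430, and for 5 of 10 erythroid, megakaryocyte and mast cell markers from 140 to 152 and from 135 to 153. The sums of all these lists overlapped between genotypes. Tested were 6 astrocyte, 6 oligodendrocyte-lineage, 6 neuronal, 5 endothelial and mural and 4 erythroid, megakaryocyte and mast cell markers. Of these genes, 0 passed edgeR's test or DESeq2. At an unadjusted p under 0.05, 3 were higher and 0 lower in edgeR's test (background 5.96%), and 1 and 0 in DESeq2. For the 12 microglial markers the sum ran from 2660.5 to 2895 CPM in knockout and from 2356 to 2687 in wild-type libraries, with a median log2 fold change of 0.10. Of these 12, 0 passed by either tool. At an unadjusted p under 0.05, 3 were higher and 0 lower in edgeR's test (background 5.96%), and 2 and 0 in DESeq2. The 11 lymphocyte markers had regions at 4 genes, whose sum ran from 235 to 278 CPM in knockout and from 230 to 246 in wild-type libraries. Of 8 granulocyte and monocyte markers, Camp, Ly6g, Mpo and S100a8 had no region, and the sum of the other 4 ran from 74.5 to 292 CPM in knockout and from 108 to 237 in wild-type libraries, most of it Ly6c2. Ly6c2 was highest in knockout replicates 1 and 2 and wild-type replicate 2 (185, 256 and 203 CPM), the 3 libraries with the smallest share of tags in regions. S100a9 was highest in knockout replicates 1 and 2 (8.26 and 8.68 CPM) but stood at 4.05 in wild-type replicate 2. Ccr2 was lowest in knockout replicate 2 (8.68 CPM) and highest in wild-type replicate 3 (19.2). Elane was lowest in knockout replicate 1 (13.0 CPM) and highest in knockout replicate 2 (18.8). The part of such cells in the values of the developmental genes was not tested.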

How the data were processed

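ATAC-seq libraries of forebrain CD11b+ cells, 4 Nlrp3 knockout and 4 wild type, were grouped by their labelled genotype. Bowtie2, HOMER and DESeq2 appear in the submitters' processing notes, with the mm10 build. Per the file headers, the authors merged peak lists of each genotype that had passed a replicate reproducibility filter (IDR) and counted at most 3 tags per position. The deposited count table holds whole tags per region and library. The deposited normalized signal is the same tags scaled by the authors to 10000000 tags per library, per the file headers, and differed from the scaled counts by at most 0.005. For alignment settings, transposase shift and duplicate removal the sources used here give nothing.

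The 117 regions without a gene stayed in the region test and out of gene sums. Counts were tested with edgeR 4.0.16 (R 4.3.3): TMM, filterByExpr at a minimum count of 10, quasi-likelihood F test with genotype as the only term, all 8 libraries, adjusted p under 0.05 over all tested features. The SE is the fold change divided by the square root of F. The fit was tested on counts simulated from the real means and spreads over all tested features. Of 100 regions and 100 genes given a 2-fold change it called 42 and 86, with 10 and 15 false calls. At 4-fold it called 95 and 98 of 100. RefSeq promoter sequences and genes are of GRCm38.p6, and 99.35% of 2000 deposited promoter regions lay within 1 kb of the RefSeq window of their gene. DESeq2 1.42.0, other scalings and filters, and leaving out libraries were alternatives. Python 3 libraries (scipy, matplotlib) gave exact binomial intervals and plots.

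The families, gene lists and rules were chosen with earlier results of these data known, and the promoter window comparison was added after the files were read. Values are given for the 5 genes and 5 regions of smallest p above and below 0, the gene with the highest sum and the one with most regions per family, the highest and lowest promoter region, and 16 lineage regulators. Lists were Polycomb complexes, Hox activators and H3K27 demethylases, Hox cofactors, and markers of microglia, neurons, astrocytes, oligodendrocyte lineage, endothelial and mural cells, lymphocytes, granulocytes and monocytes, and erythroid, megakaryocyte and mast cells. Other regions in the text were chosen after their values were seen.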

Additional observations from a re-analysis of the deposited data

Results flagged for a closer look

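In 74 groups of 4 libraries, the highest or lowest library stood apart from the other 3 in 5 groups, by Dixon's criterion, which chance meets in about 1 of 20 groups. The Lhx3 sum was 25.03 CPM in knockout replicate 4, and the remaining knockout libraries ran from 35.1 to 36.6. The Gata5 sum was 25.7 CPM in wild-type replicate 2, and the remaining wild-type libraries ran from 18.6 to 19.5. The Lhx9 sum was 18.1 CPM in wild-type replicate 4, against 13.5 to 14.1. The Tbx2 region chr11:85849189-85849452 had 8.86 CPM in knockout replicate 2, against 9.65 to 9.70. The median level of the families' regions away from promoters was 3.02 CPM per 100 bp in wild-type replicate 2, against 2.71 to 2.73.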

How the results depend on the processing

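The counts of 0 changed regions and 0 changed genes in the families held under all 16 alternatives to the region test and all 18 to the gene test, with lowest adjusted p of 0.424 and 0.105 (Lhx3 without knockout replicate 4). The 20 named fold changes kept their direction under the alternatives run for each, 316 values in all, and none passed the threshold. Leaving out 1 library moved 6 of the 20 by over 1.5 times: Lhx9 (0.26) to 0.17 and 0.39 without knockout replicates 1 and 4, Dlx3 (0.29) to 0.13, 0.51 and 0.19 without knockout replicate 3 and wild-type replicates 2 and 3, Lhx8 (0.16) to 0.07 without knockout replicate 3, the Pax4 gene (-0.73) to -0.48 without knockout replicate 4, and the Gata6 gene (-0.47) and region (-0.48) to -0.25 and -0.28 without wild-type replicate 1. Over all regions the count of 99 became 65 with DESeq2, 19 with scaling to all tags, 60 with a minimum count of 20, and 65 to 123 when 1 library was left out, and over all genes the count of 33 became 5 with scaling to all tags and 20 to 42. Without knockout replicates 1 and 2 the counts were 246 regions and 70 genes. With the replicate number as a block they were 140 and 38, with 0 in the families; same-numbered libraries correlated by -0.01, 0.09, 0.00 and 0.14, which does not pair them. The median of the families' genes ran from -0.0706 to 0.0836 when 1 library was left out. The share of promoter windows with a region was 28.0% with regions within 1 kb, an alternative added after seeing the data. Depth, a median of 7 to 25 tags per region, limits the genotype comparison.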
